A study of Homo sapiens with 6 samples.

Results

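Transcripts of 10 integrin subunits were measured in SW620, a human colorectal cancer cell line, among 20476 genes in the count table. The members were taken as a named list of epithelial subunits, 5 alpha (ITGA2, ITGA3, ITGA5, ITGA6, ITGAV) and 5 beta (ITGB1, ITGB4, ITGB5, ITGB6, ITGB8), and all 10 were found and passed the filter on low counts. Of the 6 libraries, 3 came from cells with a stable hairpin that targets ECM1, the gene of a secreted matrix glycoprotein (shECM1), and 3 from cells with a negative control hairpin (shNC). All libraries come from the same line and both groups are hairpin-bearing lines, with no untransduced cells among them. The sources used here give neither the hairpin sequences nor the number of clones.

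Integrins are heterodimers of an alpha and a beta subunit that span the cell membrane and hold the cell to its matrix. The pairing sets the ligand: ITGB1 joins many alpha subunits, ITGB4 pairs only with ITGA6, and ITGB5, ITGB6 and ITGB8 pair with ITGAV. In gut epithelium, laminin receptors anchor cells to the basement membrane, and the ITGA6 and ITGB4 pair builds hemidesmosomes, which link laminin to keratin filaments through plectin. ITGAV with ITGB6 or ITGB8 is known for releasing active TGF-beta from its latent complex.

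Promoters of 8 members were matched by symbol to RefSeq (GRCh38.p14), in windows of 300 bases, from 250 before to 50 after the RefSeq start. Those of 3 members are printed 5′ to 3′ on the gene's strand, the 250 bases before the start, because they show unlike promoters within the family: ITGB5, whose groups did not overlap, ITGA6, and ITGAV, whose groups overlapped. They lie at chr3:124901419-124901668 (ITGB5, minus strand), chr2:172427086-172427335 (ITGA6, plus strand) and chr2:186589806-186590055 (ITGAV, plus strand). The RefSeq start can differ from the GENCODE gene ends given below. In ITGB1 the 250 bases before it, chr10:32958231-32958480, lie inside the gene's range of 32900319 to 33005792. Those of ITGA2, ITGA5, ITGB6 and ITGB8 lie partly inside the range of their gene. Capitals mark matches, on either strand, to the GC box GGGCGG, the ETS motif CCGGAAG and the TATA box TATAAA.
ITGB5: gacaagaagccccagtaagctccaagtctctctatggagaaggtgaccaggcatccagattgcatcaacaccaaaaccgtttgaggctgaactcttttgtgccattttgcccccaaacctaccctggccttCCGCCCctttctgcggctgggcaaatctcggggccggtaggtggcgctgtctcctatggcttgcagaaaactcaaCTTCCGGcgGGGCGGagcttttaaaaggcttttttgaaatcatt
ITGA6: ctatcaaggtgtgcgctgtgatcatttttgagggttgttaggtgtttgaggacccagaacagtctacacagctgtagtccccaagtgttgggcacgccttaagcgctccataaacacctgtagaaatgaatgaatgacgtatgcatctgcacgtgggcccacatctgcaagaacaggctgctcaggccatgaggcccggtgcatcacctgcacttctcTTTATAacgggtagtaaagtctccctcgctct
ITGAV: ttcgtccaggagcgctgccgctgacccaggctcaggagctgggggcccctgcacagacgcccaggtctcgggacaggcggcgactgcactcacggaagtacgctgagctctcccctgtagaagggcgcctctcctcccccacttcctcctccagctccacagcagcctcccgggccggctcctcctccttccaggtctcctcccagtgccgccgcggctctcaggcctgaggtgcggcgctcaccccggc

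The ITGB5 window holds 2 GC boxes and 1 ETS match, that of ITGA6 holds a TATA match 32 bases before the start, and the printed ITGAV window holds none of the 3. Over the whole windows, a GC box was present in 6 of the 8 members with a promoter (ITGA2, ITGA5, ITGA6, ITGB1, ITGB5 and ITGB8), and in 44.6% of all 27305 promoters and 70.5% of those of tested genes. The AP-1 motif TGANTCA, bound by FOS and JUN proteins, was in 1 member promoter, that of ITGA5, where it spans the RefSeq start. It was in 7.76% of all promoters and 4.53% of those of tested genes. ETS matches were in 1 member, 10.7% of all promoters and 19.4% of those of tested genes, and TATA matches in 1 member, 12% and 5.63%. No member window held the EGR motif GCGGGGGCG (5.02% of all promoters and 8.21% of those of tested genes), the TEAD motif GGAATGT (3.48% and 2.08%) or the cyclic AMP response element TGACGTCA (1.98% and 3.31%). All motifs were read on both strands, and no letters are shared between overlapping matches in the printed windows. A match is a description of the letters only.

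Library totals ran from 9881720 to 16813951 counts, and the members together held 0.226% to 0.443% of them. The table's columns were assigned to groups by the letter and number in their headers, which is an inference: were the letters swapped, each direction given here would turn. ECM1, the targeted gene, was at 38.8, 19.0 and 52.3 CPM (counts scaled to a common library total, normalised by trimmed mean of M values) in shNC replicates 1, 2 and 3 and at 14.8, 13.6 and 8.41 CPM in the shECM1 replicates. Library shNC replicate 2 stood apart from its group: on the first principal component it lay at 8.64, beside the shECM1 libraries (16.6 to 23.3) and away from shNC replicates 1 and 3 (-25.2 and -41.3). In 67.9% of the 12576 genes tested it was nearer to the shECM1 mean than to the mean of the other shNC libraries. Nothing says that the replicates were separate cultures, and p-values therefore cover the spread between these libraries only, which may be technical.

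All 10 subunits had a negative log2 fold change (shECM1 minus shNC), with a median of -0.43, whereas 48.6% of all genes tested were negative and their median was 0.01. The value of ITGB8 was 0.00 when rounded and was positive in 10 of 17 alternatives, DESeq2 among them, and that of ITGAV was positive in 1. With edgeR on all 6 libraries the largest differences were in ITGB4 and ITGA5, and the smallest in ITGB8, ITGAV and ITGB1. edgeR's quasi-likelihood test called 0 of the 10 at a Benjamini-Hochberg adjusted p under 0.05, as it called 0% of all genes in either direction, and 6 of the 10 had an unadjusted p under 0.05 on the lower side (14.2% of all genes tested, with 8.31% on the higher side). DESeq2 called ITGB4 and ITGA5 lower, 2 of 10 against 5.13% of the genes it tested, and none higher (1.04% of its genes). Without shNC replicate 2, edgeR called 7 of 10 lower, against 14.1% of genes, and 0 higher (9.73% of genes), and ITGB1, ITGAV and ITGB8 were the 3 it did not call. Every shECM1 library lay below every shNC library in 4 members (ITGB4, ITGA5, ITGA3 and ITGB5), a pattern seen in 13.2% of all genes tested.

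**Figure D1:**
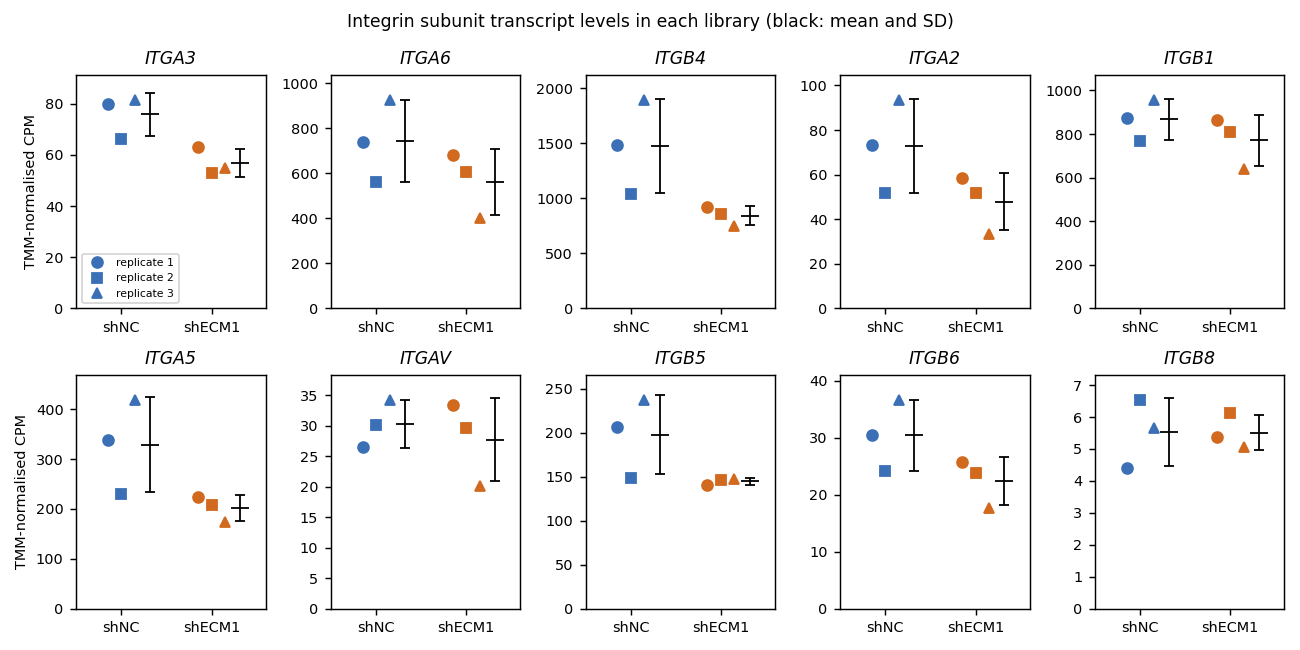
Level of each integrin subunit in each library, in TMM-normalised CPM on axes that start at 0, with blue points for shNC, orange for shECM1, a marker shape for each replicate number and black bars for the mean and SD (n = 3). ITGB4, ITGA5, ITGA3 and ITGB5 show no overlap between the groups, and shNC replicate 2 (blue square) is the lowest control in 8 of the 10 panels.

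Laminin receptors were led by ITGB4, the hemidesmosome subunit with a long cytoplasmic tail that binds plectin (ENSG00000132470, GRCh38 chromosome 17, 75721328 to 75757818, plus strand). Its level was 1488, 1042 and 1899 CPM in shNC replicates 1, 2 and 3 and 922, 861 and 753 CPM in shECM1 replicates 1, 2 and 3. Every knockdown library lay below every control, and shNC replicate 2 was the control closest to them. The means were 1476 ± 429 and 845 ± 85.8 CPM (SD, n = 3 each), a log2 fold change of -0.81 ± 0.18 (SE), with an adjusted p of 0.0973 by edgeR and 0.00158 by DESeq2. The edgeR value of 0.0973 was the smallest of the whole fit and was shared by many genes, ITGB7 and PLEC among them. By unadjusted p, ITGB4 ranked 119. Of the 12576 genes tested, 521 (4.14%) had a log2 fold change as low or lower.

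ITGA6, its partner and also a partner of ITGB1 (ENSG00000091409, chromosome 2, 172427354 to 172506282, plus strand), was at 737, 563 and 927 CPM in the shNC replicates and 682, 606 and 399.8 CPM in the shECM1 replicates. The groups overlapped, because shNC replicate 2 lay below shECM1 replicates 1 and 2. Its difference of -0.40 ± 0.20 (log2, SE) passed neither test (edgeR adjusted p = 0.267, DESeq2 adjusted p = 0.214). It moved to -0.20 without shECM1 replicate 3, the lowest library, and to -0.21 without shNC replicate 3, the highest. Without shNC replicate 2 edgeR called it lower, at -0.55 (adjusted p = 0.0436), and DESeq2 on the same 5 libraries did not (-0.56, adjusted p = 0.197).

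ITGA3, the alpha subunit of the other main epithelial laminin receptor (ENSG00000005884, chromosome 17, 50055968 to 50090481, plus strand), was at 79.9, 66.1 and 81.6 CPM in shNC and 62.9, 52.9 and 54.7 CPM in shECM1. The groups did not overlap, and the nearest libraries were shNC replicate 2 and shECM1 replicate 1. Its log2 fold change was -0.42 ± 0.12 (SE), uncalled by edgeR (adjusted p = 0.112) and DESeq2 (adjusted p = 0.0533).

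The beta subunit ITGB1 (ENSG00000150093, chromosome 10, 32900319 to 33005792, minus strand), the common partner of ITGA2, ITGA3, ITGA5 and ITGA6, was at 875, 768 and 958 CPM in shNC and 866, 809 and 639.9 CPM in shECM1. The groups overlapped, with shNC replicate 2 below shECM1 replicates 1 and 2. A log2 fold change of -0.17 ± 0.13 (SE) was fitted (edgeR adjusted p = 0.454), and it was -0.05 without shECM1 replicate 3 and -0.09 without shNC replicate 3. This subunit, the one with the most alpha partners, is among the 3 members that were called by none of edgeR, DESeq2 and edgeR without shNC replicate 2.

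The collagen-binding subunit ITGA2 (ENSG00000164171, chromosome 5, 52989326 to 53094779, plus strand), which pairs with ITGB1, was at 73.4, 51.6 and 93.6 CPM in shNC and 58.3, 51.8 and 33.5 CPM in shECM1. Here shNC replicate 2 lay just below shECM1 replicate 2, so the groups overlapped. The log2 fold change of -0.61 ± 0.23 (SE) was the largest of the 6 overlapping members and was not called (edgeR adjusted p = 0.157, DESeq2 adjusted p = 0.0731). It ranged from -0.79 without shNC replicate 2 to -0.39 when shNC replicate 3 was left out.

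Fibronectin and other ligands with an RGD sequence are bound by ITGA5 with ITGB1 and by the ITGAV pairs. ITGA5 (ENSG00000161638, chromosome 12, 54395261 to 54419460, minus strand) was at 338, 230.2 and 418 CPM in the controls and 224, 208 and 174 CPM in the knockdown. The groups did not overlap, although shNC replicate 2 and shECM1 replicate 1 were close. Its log2 fold change was -0.70 ± 0.19 (SE), with an adjusted p of 0.104 by edgeR and 0.00897 by DESeq2.

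ITGAV itself (ENSG00000138448, chromosome 2, 186590065 to 186680901, plus strand) was low, at 26.5, 30.1 and 34.2 CPM in shNC and 33.5, 29.5 and 20.1 CPM in shECM1. The groups overlapped widely, and the lowest control was the replicate 1 library rather than replicate 2. The log2 fold change of -0.13 ± 0.18 (SE, edgeR adjusted p = 0.688) turned to 0.05 without shECM1 replicate 3.

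Among the beta partners of ITGAV, ITGB5, a vitronectin receptor subunit (ENSG00000082781, chromosome 3, 124761948 to 124901418, minus strand), was at 207, 149 and 237 CPM in shNC and 140.3, 146 and 148 CPM in shECM1. The knockdown libraries were tightly grouped, and shNC replicate 2 lay only just above them. Its log2 fold change was -0.45 ± 0.15 (SE, edgeR adjusted p = 0.13, DESeq2 adjusted p = 0.0638). Without shNC replicate 2 it was -0.61 and called (edgeR adjusted p = 0.00155), and without shNC replicate 3, the highest control, it was -0.30.

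ITGB6, an epithelial subunit that activates latent TGF-beta (ENSG00000115221, chromosome 2, 160099666 to 160200313, minus strand), was at 30.5, 24.2 and 36.7 CPM in shNC and 25.8, 23.8 and 17.7 CPM in shECM1. Only shNC replicate 2 fell within the knockdown range. The fitted difference was -0.44 ± 0.18 (log2, SE, edgeR adjusted p = 0.187), or -0.57 and called without shNC replicate 2 (edgeR adjusted p = 0.0263) and -0.29 without shNC replicate 3.

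ITGB8, the other TGF-beta activating subunit (ENSG00000105855, chromosome 7, 20330702 to 20415754, plus strand), rested on 52 to 103 counts per library, the fewest of the members. It was at 4.4, 6.54 and 5.66 CPM in shNC and 5.36, 6.14 and 5.05 CPM in shECM1. The knockdown libraries lay inside the range of the controls, and the fitted log2 difference was 0.00 ± 0.21 (SE, edgeR adjusted p = 0.991). The SE exceeds the differences of ITGB1 and ITGAV, so one of that size was not detectable here.

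Library by library, shNC replicate 3 was the highest of all 6 in 9 of the 10 members, and shECM1 replicate 3 was the lowest of all 6 in 7. Replicate 2 of shNC was the lowest control in 8 members and lay within the range of the shECM1 libraries in 5. The order of the libraries was thus much the same across most subunits, and ITGB8 and, less so, ITGAV departed from it. On the first principal component of all tested genes, shNC replicate 3 and shECM1 replicate 3 were also at the ends (-41.3 and 23.3). As a description over the 6 libraries, Pearson correlations of log2 CPM were 0.995 between ITGA5 and ITGB4, 0.991 between ITGA6 and ITGB1, and 0.86 between the partners ITGA6 and ITGB4. ITGB8 correlated with ITGAV at 0.44 and with each of the others below 0, between -0.365 and -0.032. ITGAV correlated with the members other than ITGB8 at 0.242 (ITGB5) to 0.847 (ITGB1). These points share their libraries and the split into groups.

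GC content ran from 37.8% in the longest ITGB8 transcript to 63.7% in that of ITGB4, and was 61.3% in ITGA3. When a trend on GC content was fitted in each library and used as an offset, chosen after seeing the data, all 10 log2 fold changes were negative (46.5% of genes with this offset) and 0 were called by edgeR. Of the 10, 7 were lower at an unadjusted p under 0.05, against 11% of genes lower and 11.5% higher. The values of the GC-rich subunits came closer to 0, at -0.53 for ITGB4 and -0.19 for ITGA3. Those of the GC-poor subunits moved the other way, to -0.74 for ITGA2, -0.57 for ITGB6, -0.49 for ITGA6, -0.29 for ITGB1 and -0.27 for ITGAV. With this offset, therefore, ITGA2 rather than ITGB4 had the most negative value. Without shNC replicate 2, the offset gave 7 members called lower, against 12.8% of genes lower and 13.9% higher, with ITGB1 called (-0.40, adjusted p = 0.0143) and ITGA3 not called (adjusted p = 0.18).

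**Figure D2:**
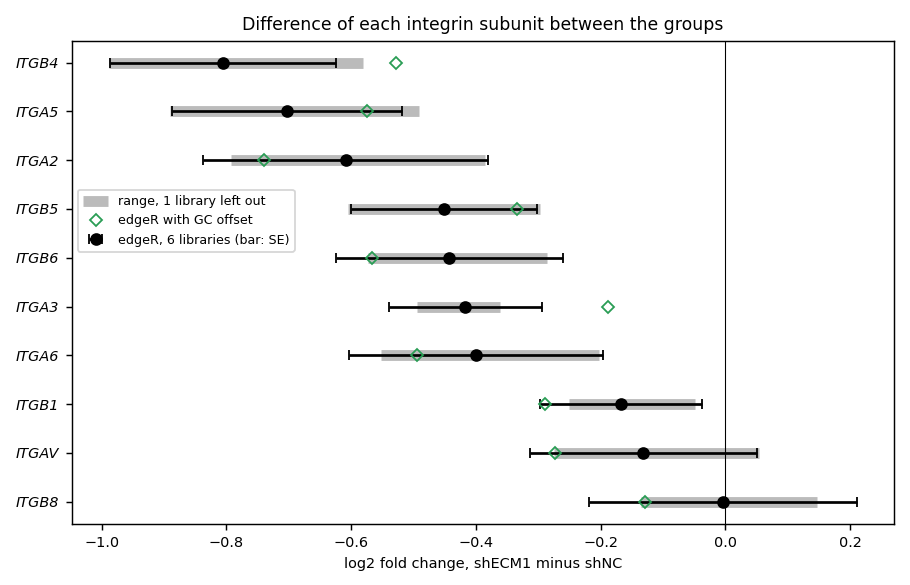
Log2 fold change of each subunit (x axis, shECM1 minus shNC): black points with SE bars are edgeR on 6 libraries, grey bands span the fits that leave out 1 library, and green diamonds are edgeR with a GC offset. ITGB4 goes from -0.81 to -0.53 and ITGA3 from -0.42 to -0.19 with the offset, while ITGB8 lies at 0.00 with a band on both sides of 0.

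Levels were compared between genes as CPM per kilobase of annotated exon. This scale assumes reads along the whole transcript, and the labels' protocols also describe a 3′ library kit, for which it would not hold. In shNC the order was ITGB4 (218 ± 63.4), ITGB1 (144 ± 15.9), ITGA6 (114 ± 27.8), ITGA5 (43.4 ± 12.5), ITGB5 (30.7 ± 6.97), ITGA2 (9.21 ± 2.66), ITGA3 (7.74 ± 0.868), ITGB6 (6.5 ± 1.33), ITGAV (3.69 ± 0.471) and ITGB8 (0.365 ± 0.0709 CPM per kilobase, SD, n = 3). Within each control library the neighbours stood in that order, except that ITGA3 lay above ITGA2 in shNC replicate 2. The ranges over the 3 controls did not overlap between ITGA6 and ITGA5, ITGB5 and ITGA2, ITGB6 and ITGAV, or ITGAV and ITGB8, and overlapped between the other neighbours. In shECM1, ITGB1 (128 ± 19.6) and ITGB4 (125 ± 12.7) were within each other's spread and lay above ITGA6 (86.1 ± 22.4), and the order below them was the same as in shNC. There the ranges of the neighbours ITGA2 and ITGA3, ITGA3 and ITGB6, and ITGB6 and ITGAV overlapped as well.

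The balance between subunits of 1 library does not depend on a scaling factor for that library, though it does depend on a GC correction, and is given as a description with no test and no such correction. ITGB4 made up 54.4%, 49.6% and 57.9% of the summed CPM per kilobase of the 5 beta subunits in shNC replicates 1, 2 and 3, and 44.3%, 43.9% and 45.5% in the shECM1 replicates. ITGB1 made up 32.8% to 41.1% in shNC and 43.5% to 46.8% in shECM1. Neither share overlapped between the groups. These are not separate results, because both are parts of 1 sum and a smaller ITGB4 share leaves a larger one to ITGB1. The level of ITGB1 itself was not higher in shECM1 (log2 fold change -0.17, overlapping groups). Among the alpha subunits, ITGA6 held 63.3% to 64.6% in shNC and 63.4% to 68.8% in shECM1, and those ranges overlapped.

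On the log2 scale, the per-kilobase ratio of ITGB4 to ITGB1 was 0.60, 0.27 and 0.82 in the controls and -0.08, -0.08 and 0.07 in the knockdown. That of ITGA5 to ITGB1 was -1.71, -2.07 and -1.53 in the controls and -2.29, -2.29 and -2.21 in the knockdown. The groups did not overlap in these 2 ratios, and they overlapped in the other 8 ratios of subunits computed. The GC offset made both differences smaller: the gap between the edgeR log2 fold changes of ITGB4 and ITGB1 was -0.64 without it and -0.24 with it, and that between ITGA5 and ITGB1 was -0.535 and -0.286. The ratio of ITGB4 to its own partner ITGA6 was 0.93 ± 0.08 in shNC and 0.57 ± 0.26 in shECM1 (SD, n = 3), with shECM1 replicate 3 (0.86) above shNC replicate 2 (0.84). The ratio of ITGAV to ITGB1 was -5.29 ± 0.19 and -5.27 ± 0.15.

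**Figure D3:**
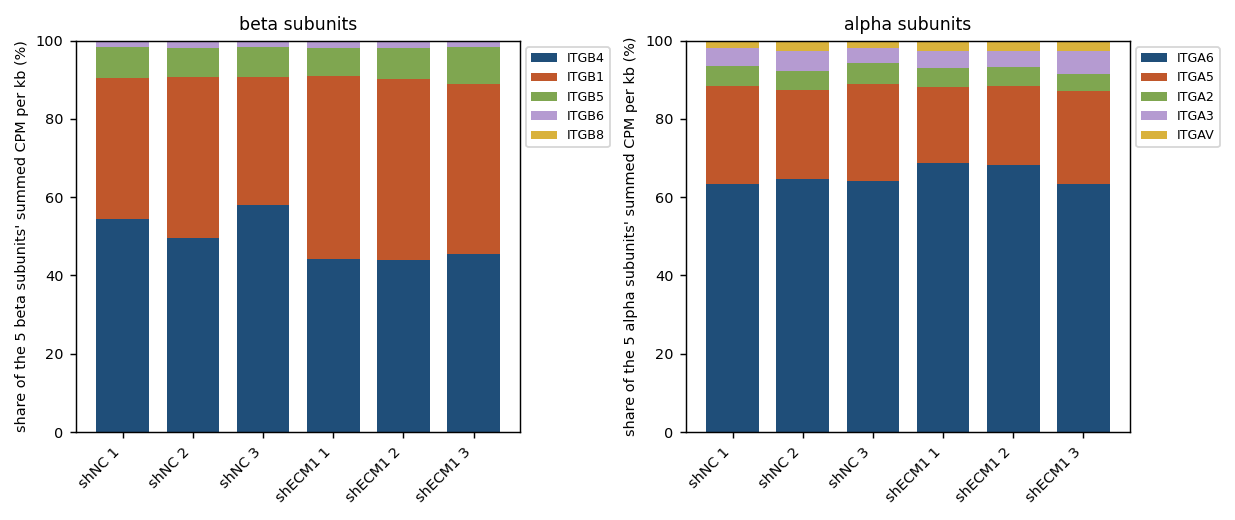
Share of each subunit in the summed CPM per kilobase of the 5 beta (left) and 5 alpha subunits (right), as stacked bars that add to 100% in each library. The ITGB4 share is 49.6% to 57.9% in shNC and 43.9% to 45.5% in shECM1, and ITGA6 holds at least 63.3% of the alpha sum in each library. No GC correction is applied to these shares.

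The genes whose pattern over the 6 libraries was most like that of ITGB4, among 5552 candidates, were LRP1, PDLIM7 and SOX13 (Pearson r = 0.999 each), ITGB7 (0.998) and PRKCA (0.997). Those most like ITGB1 were SEPTIN10 (0.999), MET (0.997), CERS5 (0.995), OPTN (0.994) and KCTD9 (0.993). The log2 fold changes of the first set ran from -1.16 to -0.50 and of the second from -0.32 to -0.14, and none was called by edgeR. With so many candidates and 6 points that share their libraries, high values of r are easily reached.

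Of 16 other integrin subunits, 8 passed the count filter, 6 with a negative log2 fold change, and edgeR called 0. At an unadjusted p under 0.05, 6 were lower, against 14.2% of all genes tested. ITGB7, known as a leukocyte subunit that binds E-cadherin with ITGAE, was at 326, 184 and 421 CPM in shNC and 153, 147 and 117 CPM in shECM1, with no overlap. Its log2 fold change was -1.16 ± 0.24 (SE, edgeR adjusted p = 0.0973, DESeq2 adjusted p = 0.000197). The laminin receptor subunit ITGA7 was at 78.3, 53.2 and 86.5 CPM in shNC and 38.8, 43.8 and 37.5 CPM in shECM1 (log2 fold change -0.86 ± 0.17 SE, DESeq2 adjusted p = 0.000678). ITGAX, a myeloid subunit, stood at 3.66 to 6.26 CPM against 1.54 to 3.18 CPM. DESeq2 called these 3 subunits lower (5.13% of its genes). ITGAE was at 42.8 to 44.0 CPM in shNC and 45.8 to 51.7 CPM in shECM1, without overlap, and was not called (log2 fold change 0.20, edgeR adjusted p = 0.301).

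Markers of other cells were read beside these subunits, since in such libraries fewer cells of a type and less RNA per cell cannot be told apart. The leukocyte marker PTPRC had 0 counts in every library, as had CD3E, MS4A1 and the leukocyte integrin subunit ITGA4. Of 12 immune markers 3 were tested, and the summed level of the 12 was 75.8 to 194 CPM in shNC and 49.8 to 79.0 CPM in shECM1, mostly CD68. For 11 fibroblast markers the summed level was 24.5 to 36.2 and 17.3 to 21.6 CPM, with PDGFRA, FAP, COL3A1 and POSTN at 0 in every library. The 8 endothelial markers summed to 17.2 to 20.2 CPM in shNC and 13.3 to 14.9 CPM in shECM1, and KDR and EMCN were at 0. The 12 intestinal epithelial markers summed to 10795 to 15559 CPM in shNC and 10444 to 11816 CPM in shECM1, mostly KRT8 and KRT18. Of the others, CDH1, EPCAM, VIL1, ELF3 and CLDN7 had shNC means of 831, 472, 383, 155 and 41.2 CPM. CDX2, KRT20 and LGALS4 were lower, at 14.65, 1.41 and 0.79 CPM, and CDX1 and GPA33 did not pass the count filter. The sample titles name SW620 and no other cells, and the part of RNA from other cells in the integrin values was not tested.

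Ligands were counted as a list beside their receptors. Of 15 laminin and basement membrane genes, 13 were tested and 11 were negative, with a median log2 fold change of -0.53. edgeR called 0, with 9 lower at an unadjusted p under 0.05 (14.2% of all genes tested). DESeq2 called 7 lower (5.13% of its genes). LAMB3 and LAMA3, chains of laminin-332, the hemidesmosome ligand, had log2 fold changes of -0.62 and -0.68, and LAMA5, a chain of laminin-511, of -0.70 (371 ± 64.3 against 228 ± 11.1 CPM). LAMA3 was named after its values were seen. HSPG2, perlecan, was at 251 ± 34.9 and 174 ± 4.63 CPM (SD, n = 3 each). Of 17 fibronectin, RGD and collagen ligands, 11 were tested and 7 were negative, with a median of -0.14. In this list edgeR called 0, with 4 lower and 1 higher at an unadjusted p under 0.05 (14.2% and 8.31% of all genes). DESeq2 called 4 lower (5.13% of its genes). COL6A1, a collagen VI chain, was at 168 ± 49.3 CPM against 83.7 ± 2.77, and COL6A2 at 43.3 ± 16 against 17.2 ± 3.63, whereas TNC, tenascin-C, was at 307 ± 9.03 against 279.8 ± 19.5. Fibronectin itself, FN1, also named after its values were seen, was at 32.5 ± 6.69 and 25.1 ± 4 CPM and was not called (edgeR adjusted p = 0.23).

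Inside the cell, 17 of 18 genes for proteins that act at or near integrin tails were tested, 11 of them negative with a median of -0.27. edgeR called 0, with 7 lower at an unadjusted p under 0.05 (14.2% of all genes tested). DESeq2 called 3 lower (5.13% of its genes), KANK2 and FLNA among them. The filamin FLNA, an actin crosslinker that binds beta tails, was at 1771 ± 305 against 1290 ± 54.1 CPM. Talin 1 (TLN1), which switches integrins to their active state, was at 347 ± 38.1 and 287 ± 9.18 CPM and was not called by either tool (named after its values were seen).

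All 30 focal adhesion linkers and kinases were tested, 25 were negative and the median was -0.25. edgeR called 0, with 14 lower at an unadjusted p under 0.05 (14.2% of all genes tested). DESeq2 called 10 lower (5.13% of its genes), and in 14 the groups did not overlap on the lower side (13.2% of all genes). TNS4, a tensin that binds beta tails, was at 167, 96.5 and 218 CPM in shNC and 81.6, 82.0 and 71.3 CPM in shECM1, and PDLIM7 at 145, 86.0 and 202 and at 74.2, 67.6 and 58.8 CPM. In each of these genes shNC replicate 2 was the control nearest to the knockdown libraries, as it was in ITGB4. The alpha-actinins ACTN1 and ACTN4, actin crosslinkers, had log2 fold changes of -0.42 and -0.52, and the paxillin-related adaptor TGFB1I1 was low, at 6.41 ± 1.9 against 2.63 ± 0.0499 CPM. PTK2 and ILK, which act at adhesions, were at -0.15 and -0.23 and were not called by either tool (named after their values were seen). The kinase PTK2B, likewise named, was at -1.14 with no overlap, and was not called (edgeR adjusted p = 0.0996, DESeq2 adjusted p = 0.0973).

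Hemidesmosome and tetraspanin partners of ITGA6 and ITGB4 had 10 of 12 genes tested, 8 negative, with a median of -0.28. edgeR called 0, with 4 lower at an unadjusted p under 0.05 (14.2% of all genes tested). DESeq2 called PLEC and CD82 lower (5.13% of its genes). PLEC encodes plectin, which ties the ITGB4 tail to keratin filaments, and was at 2806, 1728 and 3178 CPM in shNC and 1587, 1406 and 1196 CPM in shECM1. As for ITGB4, the groups did not overlap, and the log2 fold change was -0.88 ± 0.19 (SE, edgeR adjusted p = 0.0973, DESeq2 adjusted p = 0.000923). The tetraspanins CD82 and CD9, membrane organisers, had log2 fold changes of -0.75 and -0.41, and the keratins KRT8 and KRT18 of -0.27 and -0.29. Named after their values were seen, the tetraspanins CD151 and CD81 were at -0.08 and -0.16. DST and ERBIN, the 2 positive genes, were at 0.10 and 0.07, and COL17A1, at low levels, was at -0.74. Neither tool called any of these. KRT5 and KRT14, keratins of stratified epithelium, did not pass the count filter.

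Genes of latent TGF-beta, the ligand of ITGAV with ITGB6 or ITGB8, had 9 of 13 tested, 5 negative, with a median of -0.22. edgeR called 0, with 3 lower at an unadjusted p under 0.05 (14.2% of all genes tested). DESeq2 called TGFB1, LTBP3 and LTBP4 lower (5.13% of its genes). TGFB1 was at 72.1, 49.9 and 100.7 CPM in shNC and 44.6, 45.6 and 38.1 CPM in shECM1. The latency carriers LTBP3 and LTBP4, which tether latent TGF-beta to the matrix, had log2 fold changes of -0.70 and -0.75, and the receptor TGFBR2 of -0.22. No median of these lists was tested against other genes, and the values given for the lists carry no GC correction.

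**Figure D4:**
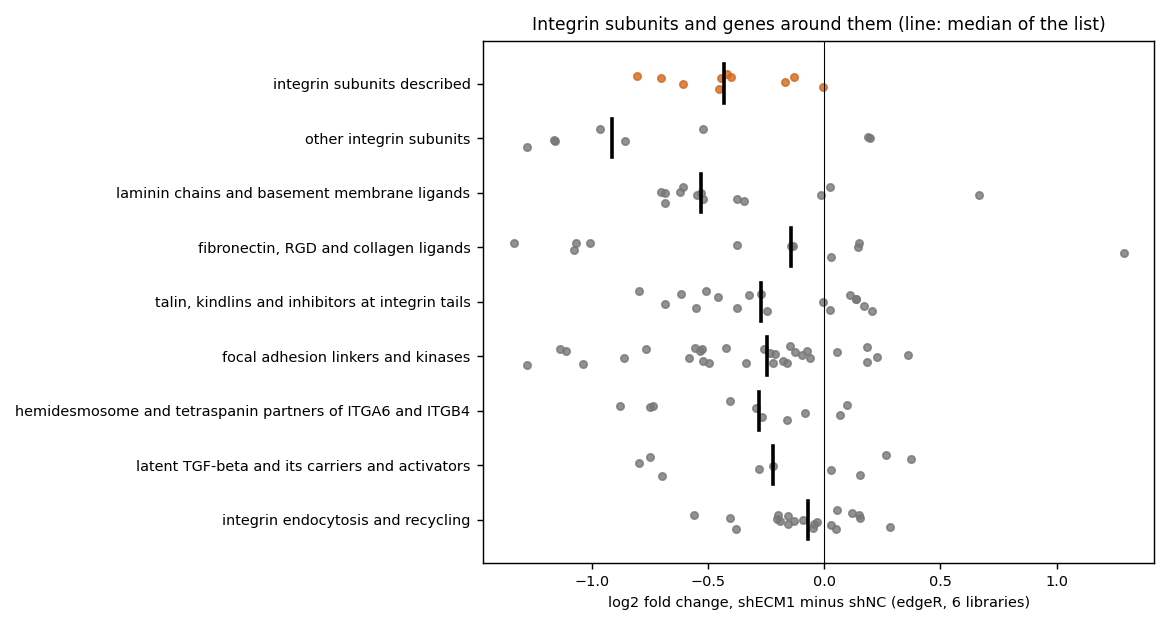
Log2 fold change (x axis, edgeR on 6 libraries) of the tested genes of the integrin list and 8 lists around it (rows; cell type markers are not shown), with orange points for the 10 integrin subunits, grey for the other lists and a black line for each median. The medians shown run from -0.91 for the other integrin subunits to -0.07 for endocytosis and recycling genes, with -0.43 for the 10 subunits, against 0.01 over all genes tested.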

How the data were processed

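The authors deposited 1 table of raw counts per gene for 6 libraries, 3 of shNC and 3 of shECM1, with 20476 gene rows. Tools named in the submitters' processing notes are STAR, featureCounts, fastp, Seurat and DESeq2, with the builds hg38 and GRCh38. Versions, roles, settings and the use of strand in counting: not given in the sources used here. Reads of overlapping antisense genes therefore cannot be told apart. Per the labels' protocols, total RNA and droplet single-cell libraries are both described, with no word on whether the columns are bulk libraries or pooled cells.

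Symbols were matched for 20462 identifiers. Coordinates, exon lengths (union of exons) and GC content (longest transcript) came from GENCODE release 29 (GRCh38). Counts were fitted in R 4.3.3 with edgeR 4.0.16 (filterByExpr, TMM, glmQLFit and glmQLFTest, no covariate), with Benjamini-Hochberg adjustment over 12576 genes and a threshold of 0.05. The SE is the absolute log2 fold change over the square root of F. Log2 CPM used a prior count of 2. DESeq2 1.42.0 and limma 3.58.1 (voom) were alternatives. Totals of 9881720 to 16813951 counts per library set the precision, with 52 to 26527 counts for a member.

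The members and gene lists were chosen with earlier results of these data known. The naming rule took all members and ECM1, then of each list the called genes or, with none called, the 3 smallest p-values and the 2 highest levels, and the 5 genes most like ITGB4 and ITGB1 with a mean log2 CPM of at least 5. Alternatives were other scalings, count filters, tools, a replicate block, leaving out each library and, chosen after seeing the data, a loess GC offset with and without shNC replicate 2 and DESeq2 without that library.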

Additional observations from a re-analysis of the deposited data

How the results depend on the processing

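Of the 10 subunits, 8 had a negative log2 fold change in all 17 alternatives, and the exceptions were ITGB8 and ITGAV. ITGB8 turned positive with upper-quartile factors (0.0017), library size only (0.0196), no count filter (0.0007), DESeq2 (0.0001), limma-voom (0.0088) and DESeq2 without shNC replicate 2 (0.1395), and leaving out 1 library gave -0.14 to 0.15. ITGAV ran from -0.27 to 0.05 with 1 library left out (0.0543 without shECM1 replicate 3). The cause was not tested. With no count filter edgeR called 505 genes, 2 members (ITGB4 and ITGA5) and 28 genes of the other lists. DESeq2 called 717, 2 and 32. Leaving out 1 library gave 0 to 3037 genes, 0 to 7 members and 0 to 57 list genes, and only the fit without shNC replicate 2 gave any. Without that library, the GC offset, chosen after seeing the data, gave 3383, 7 and 54, and DESeq2, likewise added, gave 2681, 6 and 52, the 6 being those edgeR called without that library less ITGA6. The split of all calls there was 1799 lower and 1238 higher without the offset, and 1621 and 1762 with it. For edgeR's calls among the list genes it was 55 lower and 2 higher without the offset, and 46 and 8 with it. The replicate block called 0 genes, 0 members and 0 list genes (2414 genes at an unadjusted p under 0.05). Deviations from the group mean correlated at r = -0.0703, -0.0459 and -0.181 between same-numbered libraries, and at -0.0795 to 0.13 between the others. With 3 libraries in a group these values are tied to each other, so they cannot show whether the numbers pair libraries. Depth limits ITGB8 most, at 52 to 103 counts per library.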

Other observations

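Genes of integrin endocytosis and recycling were close to the middle of all genes. Of 22 genes, 20 were tested, 13 were negative and the median log2 fold change was -0.07. Of these, edgeR and DESeq2 each called 0. At an unadjusted p under 0.05, 3 were lower and 1 higher, against 14.2% and 8.31% of all genes tested. CLTC, the clathrin heavy chain, was at 504, 494 and 547 CPM in the controls and 546, 527 and 436 CPM in the knockdown, with overlapping groups. ARF6, a small GTPase of membrane recycling, was at 101, 84.0 and 124 CPM against 80.6, 75.7 and 81.1 CPM, and DNM2, the dynamin that cuts endocytic vesicles, at 470, 368 and 540.4 CPM against 353, 336 and 351 CPM. In ARF6 and DNM2 the groups did not overlap, and neither tool called them. Over the tested genes of the list, the groups did not overlap in 5 lower and 1 higher, against 13.2% and 11.2% of all genes tested. ACAP1 had a log2 fold change of -0.56. VPS35, the higher one and named after its values were seen, was at 0.28, and neither tool called these either. CCN1, a matricellular integrin ligand singled out after its values were seen, was higher in every shECM1 library, at 1.3 ± 0.275 CPM against 0.528 ± 0.11 CPM in the controls (SD, n = 3), levels too low for DESeq2 to give an adjusted p, and edgeR did not call it (adjusted p = 0.115).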
